A study of Mus musculus with 4 samples.

Results

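The genes described here are 10 genes of synaptic vesicle endocytosis, chosen by name and read by their NCBI gene number from the 24532 gene numbers that every library lists. They are the 3 dynamins (Dnm1, Dnm2 and Dnm3), the 3 pacsins, also called syndapins (Pacsin1, Pacsin2 and Pacsin3), the amphiphysins Amph and Bin1, Sh3gl2, which encodes endophilin A, and Synj1, which encodes synaptojanin. Each of the 10 genes had 1 entry in the first library, where entries per gene number were counted. RNA was taken from granule-cell-enriched (GCE) tissue, microdissected from the cerebellar vermis of adult male mice, in 2 wild-type (WT) mice and 2 Kdm3b+/- littermates, with 1 library per mouse. Kdm3b encodes a demethylase of lysine 9 of histone H3, and the study asked which genes differ in expression when 1 copy of it is disrupted. The Kdm3b+/- mice carry the gene-trap vector pGT0lxf in an intron of Kdm3b on 1 allele, descend from 1 embryonic stem cell line, were backcrossed to C57Bl/6N and then crossed several times to C57Bl/6J, and have the disrupted allele in every cell. WT mice carry 2 intact alleles.

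When a synaptic vesicle fuses with the plasma membrane, its membrane has to be taken back up. Amphiphysin and endophilin, which bind curved membrane through a crescent-shaped BAR domain, and the pacsins, with the related F-BAR domain, gather at the neck of the forming vesicle and recruit dynamin, a GTPase that wraps the neck and cuts it. Synaptojanin, which endophilin brings to the neck, then removes phosphates from membrane phosphoinositides, and this lets the clathrin coat come off. The granule cells of the cerebellum send parallel fibers to Purkinje cells and their synapses depend on this cycle.

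Expression is given as TPM, a relative abundance in which the value of a gene is divided by transcript length and all genes of a library add up to 1000000. Fold changes are differences between Kdm3b+/- and WT in mean log2(TPM + 1), so that a value below 0 is lower in Kdm3b+/- mice, and they understate the change of low genes. They were tested with limma over 13652 genes whose TPM averaged 1 or more across the 4 libraries, and a differentially expressed (DEX) gene is one whose adjusted p was below 0.05 and whose change exceeded 1.2-fold. All 10 genes passed the filter, and each had a TPM above 1 in every library. Nothing in the sources used here says whether the mice came from 1 litter or more. The p-values set the genotype difference against the spread between mice of the same genotype. In limma the variance of each gene is drawn toward that of all tested genes, so the p-values depend on those genes too. In bulk tissue, fewer cells of a type and less RNA per cell cannot be told apart.

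The aligned bases behind a library ranged from 4.92 to 6.69 gigabases, and between 17572 and 17991 genes had a TPM above 0. Kdm3b had a TPM of 9.10 and 11.0 in WT mice and 8.30 and 7.90 in Kdm3b+/- mice, with a fold change of -0.27 (SE 0.17, limma adjusted p = 0.424), so the values of the genotypes were separate but did not pass the test. The table gives 1 value for the whole gene, with the exons before and after the vector together, and is only a partial check of the genotype. Granule cell markers were high in every library, with a summed TPM of the 12 markers from 4042 to 4967. The summed TPM of Purkinje cell markers was 1482 in WT mouse 1 and between 676 and 803 in the other libraries, which set WT mouse 1 apart. Oligodendrocyte markers summed to between 14994 and 17937, so the tissue held myelinating cells as well.

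The promoters of the 3 dynamins are shown because these close paralogs had unlike values across genotypes, as described next. The sequences are from RefSeq (assembly GRCm38.p6), which had a promoter entry for 9 of the 10 genes, and run 5′ to 3′ on the strand of the gene from 250 bases before the start to 50 bases after it. Capitals mark a GC box, searched as GGGCGG on both strands. They lie at chr2:32353280-32353579 on the reverse strand for Dnm1, at chr9:21424658-21424957 on the forward strand for Dnm2, and at chr1:162477985-162478284 on the reverse strand for Dnm3.
Dnm1: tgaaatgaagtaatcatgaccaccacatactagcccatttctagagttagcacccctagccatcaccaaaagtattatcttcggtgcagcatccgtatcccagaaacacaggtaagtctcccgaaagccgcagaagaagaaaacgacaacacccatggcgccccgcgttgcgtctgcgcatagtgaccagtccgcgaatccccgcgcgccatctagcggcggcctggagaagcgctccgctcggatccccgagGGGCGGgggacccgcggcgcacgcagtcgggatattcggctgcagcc
Dnm2: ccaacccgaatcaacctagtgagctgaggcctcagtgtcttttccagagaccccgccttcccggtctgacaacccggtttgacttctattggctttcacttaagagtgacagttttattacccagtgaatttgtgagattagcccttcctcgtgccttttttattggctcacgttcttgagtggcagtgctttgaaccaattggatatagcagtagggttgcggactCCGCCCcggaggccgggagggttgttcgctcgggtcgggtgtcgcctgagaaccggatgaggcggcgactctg
Dnm3: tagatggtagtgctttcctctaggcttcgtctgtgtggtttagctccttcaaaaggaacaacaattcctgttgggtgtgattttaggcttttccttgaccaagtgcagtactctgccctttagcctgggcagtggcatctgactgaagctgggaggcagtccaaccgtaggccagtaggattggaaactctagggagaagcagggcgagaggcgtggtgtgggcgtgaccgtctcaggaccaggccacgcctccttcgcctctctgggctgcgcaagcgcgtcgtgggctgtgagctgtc

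The GC box was found once in the Dnm1 promoter and once in the Dnm2 promoter, and 35.7% of the 32851 RefSeq promoters of this length hold it. The Dnm3 window has no match to these letters. Of the other genes with a promoter entry, Pacsin1, Pacsin2, Pacsin3, Sh3gl2 and Synj1 had a GC box in a window, and Amph had none. CCAAT, searched on both strands, was found 4 times in the Dnm2 promoter, once in the Dnm3 promoter and not in the Dnm1 promoter, and 37.4% of all promoters hold it. None of the 3 windows matched TATAAA, which 13.6% of promoters hold, nor CACGTG, which 7.15% hold. The Dnm1 promoter had 28 CpG dinucleotides, the Dnm2 promoter 17 and the Dnm3 promoter 12, against a median of 7 over all promoters. These matches describe the letters in the window and were not related to the expression values by a test.

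Dnm1 and Dnm2 had lower TPM in both Kdm3b+/- mice than in both WT mice, with group means that were 0.639 and 0.626 times those of WT mice, and Dnm3 had nearly the same level in the 4 mice. Of the 10 genes, none was a DEX gene under limma, where 0.461% of all tested genes were. The DEX genes of the study came from another test, DESeq2, on these same libraries, and Dnm1 and Dnm2 are on its list. Of the 10 genes, 3 had an unadjusted limma p under 0.05 (Dnm1, Dnm2 and Pacsin2, all lower in Kdm3b+/- mice), where 17.0% of all tested genes had one, 11.5% with a lower and 5.47% with a higher value. Both Kdm3b+/- mice were below both WT mice for 6 of the 10 genes, where 32.0% of all tested genes were, and above them for 0 of the 10, where 19.2% of all tested genes were. The 6 genes were Dnm1, Dnm2, Pacsin2, Pacsin3, Bin1 and Sh3gl2, and the genotypes overlapped for Dnm3, Pacsin1, Amph and Synj1. The median fold change of the 10 genes was -0.21, beside -0.07 for all tested genes.

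**Figure D1:**
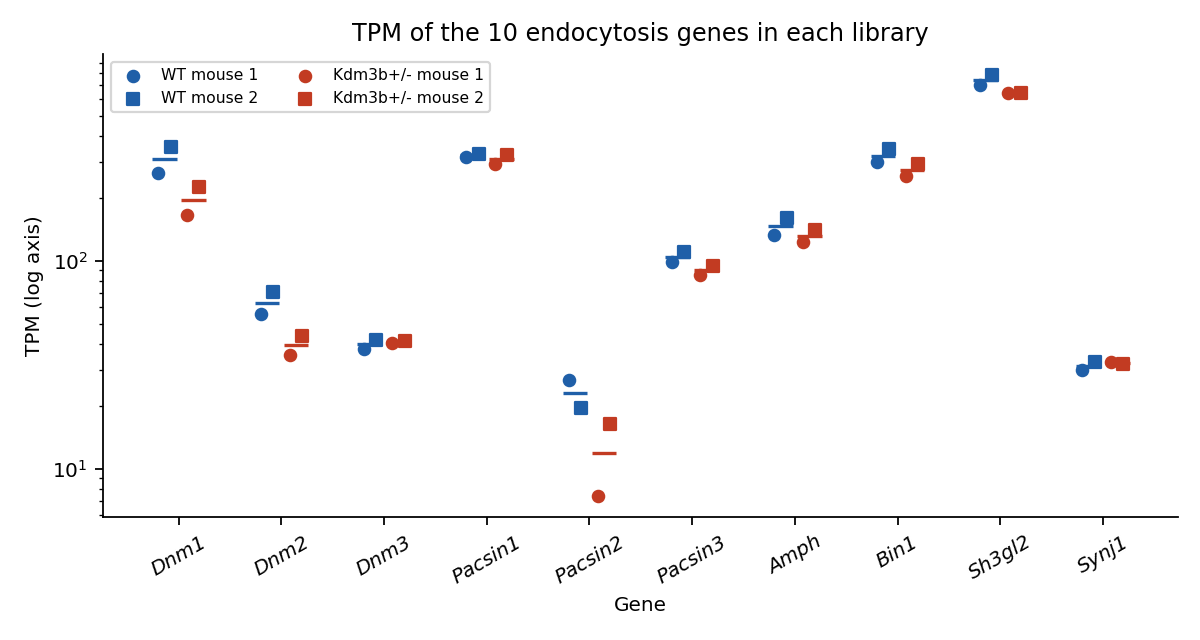
TPM on a log axis of each of the 10 genes in each library, with WT mice in blue, Kdm3b+/- mice in red, circles for mouse 1, squares for mouse 2 and a bar at each group mean. The WT and Kdm3b+/- points are apart for Dnm1, Dnm2 and Pacsin2 and lie on each other for Dnm3 and Synj1.

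Dnm1 encodes dynamin of neurons, the form that cuts synaptic vesicles from the membrane during high activity. The gene (NCBI gene 13429) spans 44.9 kb on the reverse strand of chromosome 2, from 32308471 to 32353329. In WT mice its TPM was 264 in mouse 1 and 352 in mouse 2, and in Kdm3b+/- mice it was 166 and 228. Both Kdm3b+/- mice were below the lower WT mouse, and in each genotype mouse 2 was the higher one. The means were 308 ± 62.4 in WT mice and 197 ± 43.7 in Kdm3b+/- mice (SD, n = 2 each). The fold change was -0.65 (SE 0.19, 95% interval -1.07 to -0.22), and it did not pass limma's test after adjustment over all tested genes (adjusted p = 0.174). Of all tested genes, 2.72% had a fold change this low or lower. Without Kdm3b+/- mouse 2, where the only Kdm3b+/- library is assumed to vary like the WT libraries, the fold change was -0.87 and Dnm1 was a DEX gene (limma adjusted p = 0.015), as were 1.62% of the genes tested in that fit. Over all alternatives the adjusted p of Dnm1 ranged from 0.015 to 0.676 and its fold change from -0.87 to -0.42, the latter without Kdm3b+/- mouse 1.

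Dnm2 encodes the dynamin that is found in nearly every cell type and serves endocytosis outside synapses too. The gene (NCBI gene 13430) spans 82.9 kb on the forward strand of chromosome 9, from 21424908 to 21507759. Libraries of WT mice had a TPM of 55.3 and 70.9 and those of Kdm3b+/- mice 35.4 and 43.7, so the genotypes were separate and mouse 2 was again the higher of each genotype. The means were 63.1 ± 11.0 and 39.5 ± 5.85 (SD, n = 2 each). The fold change was -0.66 (SE 0.17, 95% interval -1.05 to -0.27, limma adjusted p = 0.152). It lay between -0.84 and -0.48 when a library was left out, and in none of those fits was Dnm2 a DEX gene. Dnm2 shares 380 bases with Tmed1 on the opposite strand, whose TPM was between 59.1 and 66.5 in the 4 libraries. The sources used here do not give the strandedness of the libraries, so reads from the shared bases cannot be told apart.

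Dnm3, the third dynamin gene of vertebrates, is expressed mainly in brain and testis. The gene (NCBI gene 103967) spans 491 kb on the reverse strand of chromosome 1, from 161987302 to 162478034. A TPM of 37.9 and 41.5 was found in WT mice and of 40.5 and 41.0 in Kdm3b+/- mice. Both Kdm3b+/- values lay between the WT values. The fold change was 0.04 (SE 0.14, 95% interval -0.28 to 0.36, limma adjusted p = 0.908), an interval that holds a change by 1.2-fold either way, and its sign turned to -0.03 without WT mouse 1. Several transcripts lie within Dnm3 on the opposite strand, of which the longest overlap after 2810442N19Rik is that of Dnm3os, with a TPM from 2.89 to 3.56.

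Within the dynamins the shares of the genes in the summed TPM were apart between the genotypes in these mice, and this was not tested. The 3 genes summed to a TPM of 357 and 464 in WT mice and 242 and 312 in Kdm3b+/- mice. Dnm3 held 10.6% and 8.95% of that sum in WT mice and 16.8% and 13.1% in Kdm3b+/- mice. Dnm1 held the largest share in every library, 73.9% and 75.8% in WT mice and 68.6% and 72.9% in Kdm3b+/- mice, and its share was lower in both Kdm3b+/- mice.

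A ratio of 2 genes within a library does not depend on how libraries were scaled to each other. The log2 ratio of Dnm1 to Dnm3 was 2.77 and 3.05 in WT mice and 2.01 and 2.44 in Kdm3b+/- mice, a difference of -0.68 with a pooled SD of 0.26. For Dnm2 to Dnm3 the log2 ratio was 0.53 and 0.76 in WT mice and -0.19 and 0.09 in Kdm3b+/- mice, a difference of -0.70 with a pooled SD of 0.18. Both ratios were lower in both Kdm3b+/- mice, by more than the spread between mice of a genotype. With a library left out the first difference lay between -0.90 and -0.47 and the second between -0.84 and -0.56. After correction for transcript length and GC content they were -0.55 and -0.57. For Dnm1 to Dnm2 the log2 ratio was 2.23 and 2.29 in WT mice and 2.20 and 2.36 in Kdm3b+/- mice. Here the WT values lay between the Kdm3b+/- values, and the difference of 0.01 was within the pooled SD of 0.09. For 7 of the 8 ratios computed, the two-sided exact permutation test gave p = 0.333 (Benjamini-Hochberg adjusted 0.381), the smallest value that 2 mice against 2 allow, and for Dnm1 to Dnm2 it gave p = 1, so no ratio could pass this test.

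**Figure D2:**
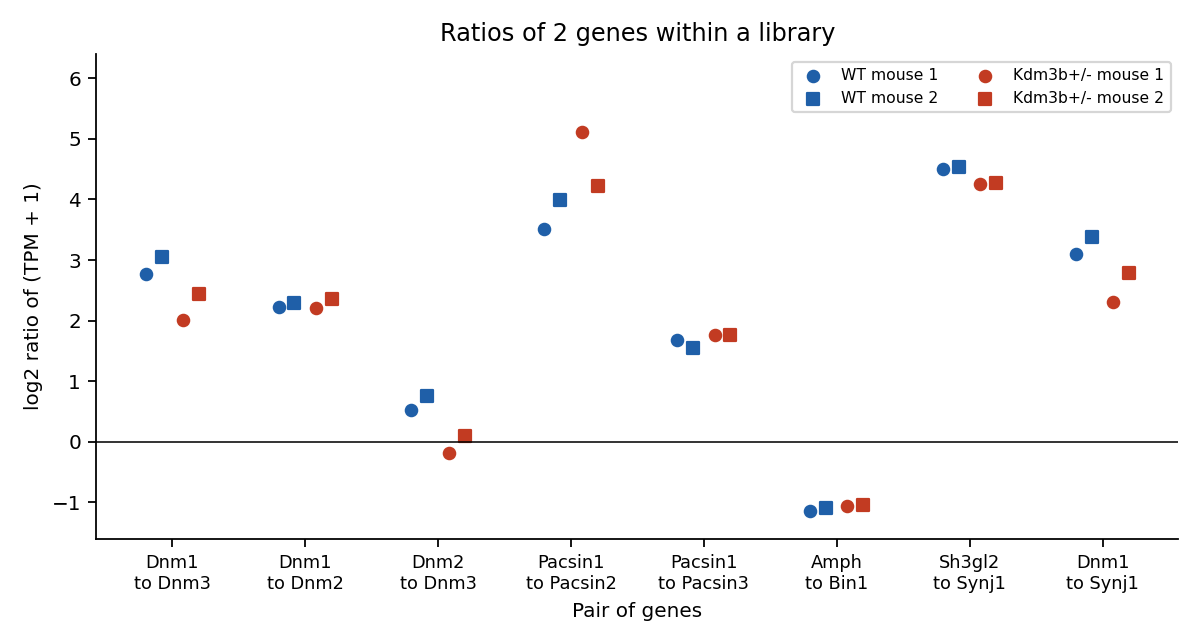
The log2 ratio of (TPM + 1) of each of the 8 pairs of genes in each library, with WT mice in blue, Kdm3b+/- mice in red, circles for mouse 1 and squares for mouse 2. The Kdm3b+/- points lie below the WT points for Dnm1 to Dnm3 and Dnm2 to Dnm3 and on both sides of them for Dnm1 to Dnm2.

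The pacsins join membrane bending to actin: their F-BAR domain binds the membrane, and their SH3 domain binds dynamin, synaptojanin and N-WASP. Pacsin1, the neuronal form, had a TPM of 317 and 326 in WT mice and 293 and 323 in Kdm3b+/- mice. Only Kdm3b+/- mouse 1 lay below the WT values, and the other Kdm3b+/- mouse lay between them. The gene (NCBI gene 23969, chromosome 17, forward strand, 27655591 to 27711117) had a fold change of -0.07 (SE 0.12, 95% interval -0.34 to 0.21, limma adjusted p = 0.813). This value equals the median of all tested genes and turned to 0.15 after correction for transcript length and GC content.

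Pacsin2, which is expressed in most tissues, had a TPM of 26.8 and 19.6 in WT mice and 7.42 and 16.4 in Kdm3b+/- mice. The genotypes were apart, Kdm3b+/- mice being lower, but WT mouse 2 and Kdm3b+/- mouse 2 were close to each other and Kdm3b+/- mouse 1 stood far below. The gene (NCBI gene 23970) spans 89.0 kb on the reverse strand of chromosome 15, from 83375607 to 83464606. The means were 23.2 ± 5.10 and 11.9 ± 6.32 (SD, n = 2 each), and the Kdm3b+/- mean was 0.513 times the WT mean. The fold change was -0.98 (SE 0.30, 95% interval -1.67 to -0.30, limma adjusted p = 0.186), and 0.564% of all tested genes had one this low or lower. Its size rested on Kdm3b+/- mouse 1: the fold change was -0.46 without that mouse (limma adjusted p = 0.79) and -1.51 without Kdm3b+/- mouse 2, where Pacsin2 was a DEX gene (limma adjusted p = 0.000345). These are the lowest and the highest adjusted p of Pacsin2 over all alternatives. WT mouse 1, the library with the highest TPM of Pacsin2, was also the one with the highest sum of Purkinje cell markers, of which 13 of 14 were tested and 7 were lower in both Kdm3b+/- mice (32.0% of all tested genes were), and without WT mouse 1 the fold change of Pacsin2 was -0.77. The part of Purkinje cell RNA in this value was not tested.

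Pacsin3, known best from muscle and heart, had a TPM of 98.5 and 110.5 in WT mice and 86.0 and 94.2 in Kdm3b+/- mice. The genotypes were separate by a narrow gap, since WT mouse 1 was close to Kdm3b+/- mouse 2. The fold change of the gene (NCBI gene 80708, chromosome 2, forward strand, 91256165 to 91264680) was -0.21 (SE 0.14, 95% interval -0.52 to 0.10, limma adjusted p = 0.452), and it lay between -0.29 and -0.13 with a library left out.

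Among the pacsins, Pacsin1 held between 71.5% and 75.8% of the summed TPM and Pacsin3 between 21.7% and 24.2%. Pacsin2 held the least, 6.06% and 4.29% in WT mice and 1.92% and 3.77% in Kdm3b+/- mice. The log2 ratio of Pacsin1 to Pacsin2 was 3.52 and 3.99 in WT mice and 5.12 and 4.22 in Kdm3b+/- mice, a difference of 0.92 with a pooled SD of 0.51. It was 0.47 without Kdm3b+/- mouse 1 and 1.37 without Kdm3b+/- mouse 2. The Kdm3b+/- mice were above the WT mice, mouse 2 only just. For Pacsin1 to Pacsin3 it was 1.68 and 1.55 in WT mice and 1.76 and 1.77 in Kdm3b+/- mice, a difference of 0.15 with a pooled SD of 0.06.

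The amphiphysins bind curved membrane, clathrin and dynamin, and Amph and Bin1 form dimers with each other at synapses. Amph had a TPM of 134 and 161 in WT mice and 123 and 141 in Kdm3b+/- mice, and the genotypes overlapped. The fold change of Amph (NCBI gene 218038, chromosome 13, forward strand, 18948351 to 19150919) was -0.15 (SE 0.15, 95% interval -0.48 to 0.18, limma adjusted p = 0.615). It lay between -0.28, without WT mouse 1, and -0.02, without WT mouse 2, and was at 0.00 after correction for length and GC content. Bin1, also called amphiphysin 2, has forms in neurons and forms that shape membrane tubules in muscle. Its TPM was 298 and 344 in WT mice and 257 and 293 in Kdm3b+/- mice, so that the genotypes were apart only by the gap between WT mouse 1 and Kdm3b+/- mouse 2. The fold change of Bin1 (NCBI gene 30948, chromosome 18, forward strand, 32377217 to 32435740) was -0.22 (SE 0.13, 95% interval -0.53 to 0.08, limma adjusted p = 0.421), and it lay between -0.32 and -0.12 with a library left out. Kdm3b itself lies on the same chromosome, from 34777008 to 34839370, and the part of linkage in this value was not tested. The ratio of Amph to Bin1, on the log2 scale, was -1.15 and -1.09 in WT mice and -1.06 and -1.05 in Kdm3b+/- mice, a difference of 0.07 with a pooled SD of 0.03. Amph held between 31.0% and 32.6% of the amphiphysin TPM, a narrow range over the 4 mice.

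Sh3gl2 encodes endophilin A1, which brings synaptojanin and dynamin to the vesicle neck. It had the highest TPM of the 10 genes, 701 and 783 in WT mice and 643 and 641 in Kdm3b+/- mice. Kdm3b+/- mice were lower, and they lay closer together than the WT mice. The fold change of Sh3gl2 (NCBI gene 20404, chromosome 4, forward strand, 85205456 to 85389379) was -0.21 (SE 0.12, 95% interval -0.47 to 0.06, limma adjusted p = 0.396), and the same range, -0.29 to -0.13, was found with a library left out. Its partner Synj1 had a TPM of 29.9 and 32.8 in WT mice and 32.5 and 32.1 in Kdm3b+/- mice, with both Kdm3b+/- values inside the WT range. The fold change of Synj1 (NCBI gene 104015, chromosome 16, reverse strand, 90936097 to 91011308) was 0.04 (SE 0.14, 95% interval -0.28 to 0.37, limma adjusted p = 0.899), and it turned to -0.02 without WT mouse 1. For Sh3gl2 to Synj1 the log2 ratio was 4.50 and 4.53 in WT mice and 4.26 and 4.28 in Kdm3b+/- mice. Its difference of -0.25 was small, but mice of a genotype were closer in this ratio than in any other computed (pooled SD 0.02). The log2 ratio of Dnm1 to Synj1 was 3.10 and 3.38 in WT mice and 2.31 and 2.79 in Kdm3b+/- mice, a difference of -0.69 with a pooled SD of 0.28, and it lay between -0.93 and -0.45 with a library left out.

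The libraries had an order that many of the 10 genes shared. WT mouse 2 was the highest library for 9 of the 10 genes, where it was for 42.4% of all tested genes, and Kdm3b+/- mouse 1 was the lowest for 7 of the 10, where it was for 38.0%. WT mouse 1 was below WT mouse 2 for 9 of the genes, Pacsin2 being the exception, and Kdm3b+/- mouse 1 was below Kdm3b+/- mouse 2 for 8 of them, Sh3gl2 and Synj1 being the exceptions. The differences within a genotype therefore went the same way in most of these genes as well, and the genes are not independent replicates of the genotype.

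The transcripts of these genes differ in GC content, and fold changes in these libraries moved with it. The median fold change of all tested genes was -0.02 in the decile of genes with the lowest GC content, -0.13 in decile 8 and -0.11 in decile 10. Dnm1, Dnm2, Pacsin1 and Pacsin3 lie in deciles 9 and 10, with 57.4%, 57.2%, 57.4% and 58.8% GC, while Dnm3 has 44.5%, Synj1 46.9% and Sh3gl2 42.9%. After a correction of every library for the length and GC content of transcripts, the fold change of Dnm1 was -0.43 (95% interval -0.71 to -0.15, limma adjusted p = 0.181) and that of Dnm2 was -0.45 (95% interval -0.72 to -0.19, limma adjusted p = 0.15). That of Pacsin2 was -0.81 (limma adjusted p = 0.268). The values of these 3 genes stayed below 0 with intervals that did not reach it, while Dnm3 was at 0.12 and Synj1 at 0.14. The median of the 10 genes was -0.11 after correction, beside -0.01 for all tested genes.

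**Figure D3:**
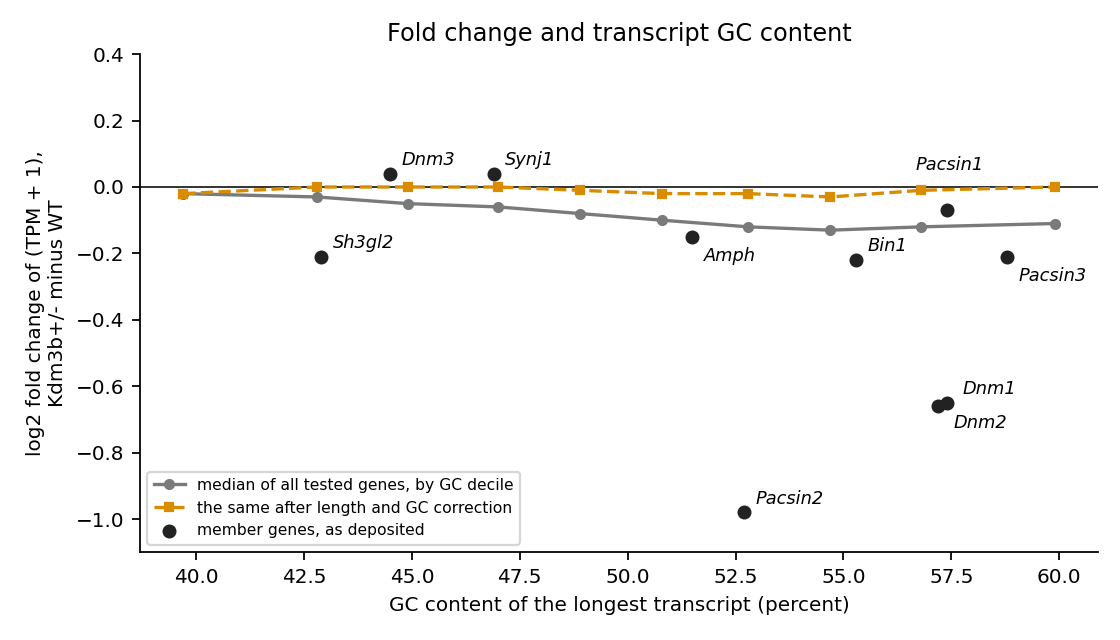
Fold change in log2(TPM + 1), Kdm3b+/- minus WT, against the GC content of the longest transcript, with the 10 genes in black, the median of all tested genes in each decile of GC content in gray, and that median after correction in orange. The gray line goes from -0.02 at the low end to -0.13 in decile 8 and -0.11 at the high end. The orange line stays near 0, and Dnm1, Dnm2 and Pacsin2 lie far below both. The correction took in transcript length too, which is not drawn.

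**Figure D4:**
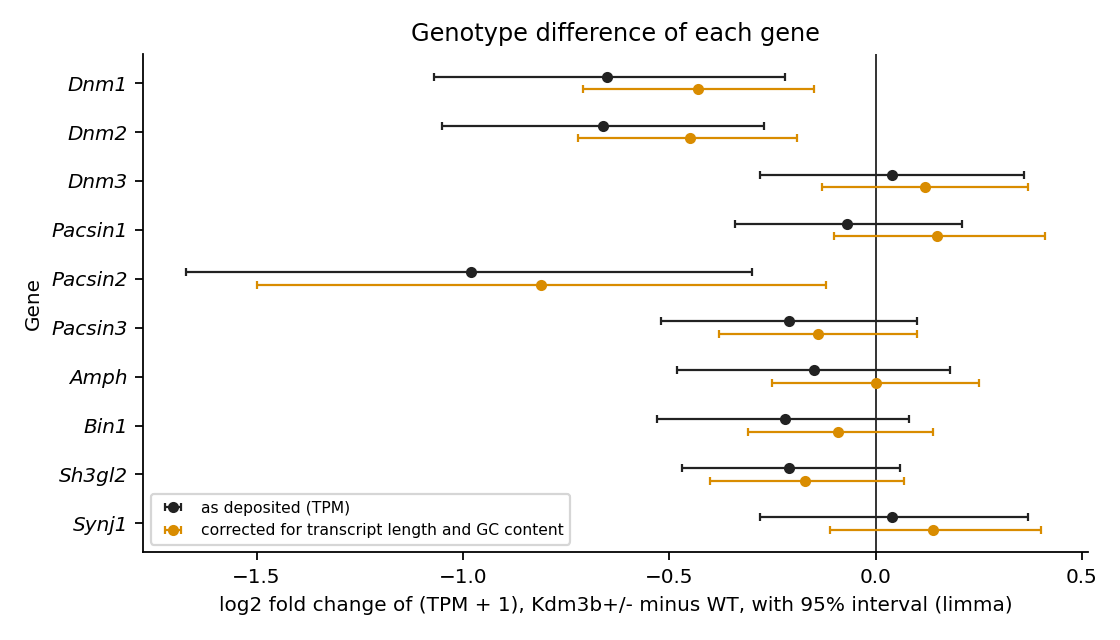
Fold change in log2(TPM + 1) of each gene, Kdm3b+/- minus WT, with its 95% interval from limma, from the deposited TPM in black and after correction for transcript length and GC content in orange. The intervals of Dnm1, Dnm2 and Pacsin2 lie below 0 in both, and those of the other 7 genes include 0.

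Over the 4 libraries the mean TPM of the genes covered a wide range, in the order Sh3gl2 (692), Pacsin1 (315), Bin1 (298), Dnm1 (252), Amph (139.7), Pacsin3 (97.3), Dnm2 (51.3), Dnm3 (40.2), Synj1 (31.8) and Pacsin2 (17.5). Sh3gl2 was above 98.7% of all tested genes and Pacsin2 above 48.2%. Most neighbours in this order were separate in both genotypes. Pacsin1 and Bin1, and Bin1 and Dnm1, were not separate in WT mice, where Dnm1 was above both in mouse 2. Dnm2 and Dnm3 were separate in WT mice, with Dnm2 higher, but not in Kdm3b+/- mice.

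The order depended on the deposited unit for the pacsins. In most genes the read depth over exons and the FPKM keep 1 ratio within a library, but the depth of Pacsin1 was 20.3% of what that ratio gives in every library, that of Pacsin3 between 35.7% and 36.1%, that of Dnm1 between 66.5% and 66.9% and that of Dnm2 between 85.6% and 86.4%. The other 6 genes had between 95.2% and 100.1%. By read depth per aligned gigabase Pacsin1 ranked 5 among the 10 genes in place of 2 by TPM, and Pacsin3 ranked 8 in place of 6, and Dnm1 ranked 3 in place of 4. The levels of Pacsin1, Pacsin3 and Dnm1 against other genes, and with them the shares within the dynamins and the pacsins, are therefore uncertain. The shortfall was nearly the same in the 4 libraries, and fold changes by read depth were -0.57 for Dnm1 (limma adjusted p = 0.247), -0.57 for Dnm2 (limma adjusted p = 0.208) and -0.85 for Pacsin2 (limma adjusted p = 0.269).

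Around these genes, 88 other genes of endocytosis were listed in 7 lists by role, and 84 of them were tested. None was a DEX gene, and the lowest limma adjusted p was 0.179, for Gak. An unadjusted limma p under 0.05 was found for 13 of the 84 (15.5%, near the 17.0% of all tested genes), of which 9 were lower and 4 higher in Kdm3b+/- mice. Both Kdm3b+/- mice were below both WT mice for 31 genes (36.9%, beside 32.0% of all tested genes) and above them for 11 (13.1%, beside 19.2%), so these shares say little about the lists. Their median fold change was -0.11, and -0.01 after correction for transcript length and GC content.

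Clathrin and its adaptors build the coat that the dynamins cut loose. Of 19 tested genes, 4 had an unadjusted limma p under 0.05 with lower values and 2 with higher values, and over all tested genes 11.5% and 5.47% did, which are the shares to set beside the lists that follow as well. Ap2a1, a large subunit of the adaptor AP2, had a TPM of 60.0 and 78.3 in WT mice and 34.8 and 55.8 in Kdm3b+/- mice (fold change -0.63, limma adjusted p = 0.231), the most negative value of the list. The light chain Cltb had the most positive one, with a TPM of 429 and 411 in WT mice and 553 and 522 in Kdm3b+/- mice (fold change 0.35, limma adjusted p = 0.206). Ap2m1, the AP2 subunit that reads cargo signals, had the highest level, from 644 to 783, and a fold change of -0.16.

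Among other BAR domain proteins and their partners, none of 15 tested genes had an unadjusted limma p under 0.05. Sh3gl1 and Sh3gl3, the paralogs of Sh3gl2, had fold changes of -0.14 and 0.17, the latter the most positive of this list, and Bin2, the paralog of Bin1 in blood cells, had a TPM from 4.69 to 6.61 and a fold change of 0.04. Sh3glb2 was the highest of the list, with a TPM from 437 to 502 and a fold change of -0.16, and the kinase Fes had the most negative fold change, -0.38. By TPM, Sh3gl1 was from 173 to 229 and Sh3gl3 from 36.0 to 48.8, both below Sh3gl2 in every library.

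Of 12 phosphoinositide enzymes, 2 had an unadjusted limma p under 0.05, both lower. Pip5k1c, which makes the phosphoinositide that recruits the coat, had the highest level and the most negative fold change of the list. Its TPM was 180.0 and 282 in WT mice and 137 and 166 in Kdm3b+/- mice (fold change -0.57, limma adjusted p = 0.23). Synj2, the paralog of Synj1, had a TPM from 3.76 to 5.54 and a fold change of -0.10, and Pik3c2a had the most positive value, 0.10.

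Of 5 uncoating genes, Gak, the cyclin G associated kinase that works with Hsc70, had a TPM of 33.2 and 43.4 in WT mice and 24.9 and 26.2 in Kdm3b+/- mice. Its fold change was -0.55 (SE 0.17, limma adjusted p = 0.179). Its neuronal relative auxilin, Dnajc6, was not named by the fixed rule and was read after its values were seen, with a fold change of -0.05. Hspa8, which encodes Hsc70 itself, had the highest TPM of the list, from 2657 to 2892, and a fold change of -0.01.

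Among 12 tested actin partners of dynamin and pacsin, Wasl, which encodes N-WASP, had the most positive fold change, 0.34 (limma adjusted p = 0.272), with a TPM of 33.0 and 35.2 in WT mice and 45.0 and 41.7 in Kdm3b+/- mice. Both Kdm3b+/- mice were above both WT mice. Mical1 had the most negative value, -0.46, at a TPM from 1.63 to 3.37, and Ehd1, a membrane ATPase that pacsins bind, was the highest, with a TPM from 110.1 to 167 and a fold change of -0.22.

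Calcineurin and the kinases that remove and add phosphates on dynamin and other endocytic proteins had a median fold change of 0.05 over 13 genes, and none had an unadjusted limma p under 0.05. Ppp3r1, the regulatory subunit of calcineurin, was the highest of the list, with a TPM from 424 to 467 and a fold change of 0.01. Gsk3a had the most negative value, -0.44 (limma adjusted p = 0.307), and Csnk2a1 the most positive, 0.27. Of 8 genes for dynamin-related GTPases of organelles and their partners, Mfn2, a GTPase of mitochondrial fusion, had the most negative fold change (-0.51, limma adjusted p = 0.249), and Fis1, a partner of mitochondrial fission, had the most positive (0.32, limma adjusted p = 0.275) and the highest TPM. Dnm1l, the dynamin-related GTPase that divides mitochondria, had a TPM of 97.5 and 107 in WT mice and 95.4 and 87.3 in Kdm3b+/- mice and a fold change of -0.16 (limma adjusted p = 0.566).

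**Figure D5:**
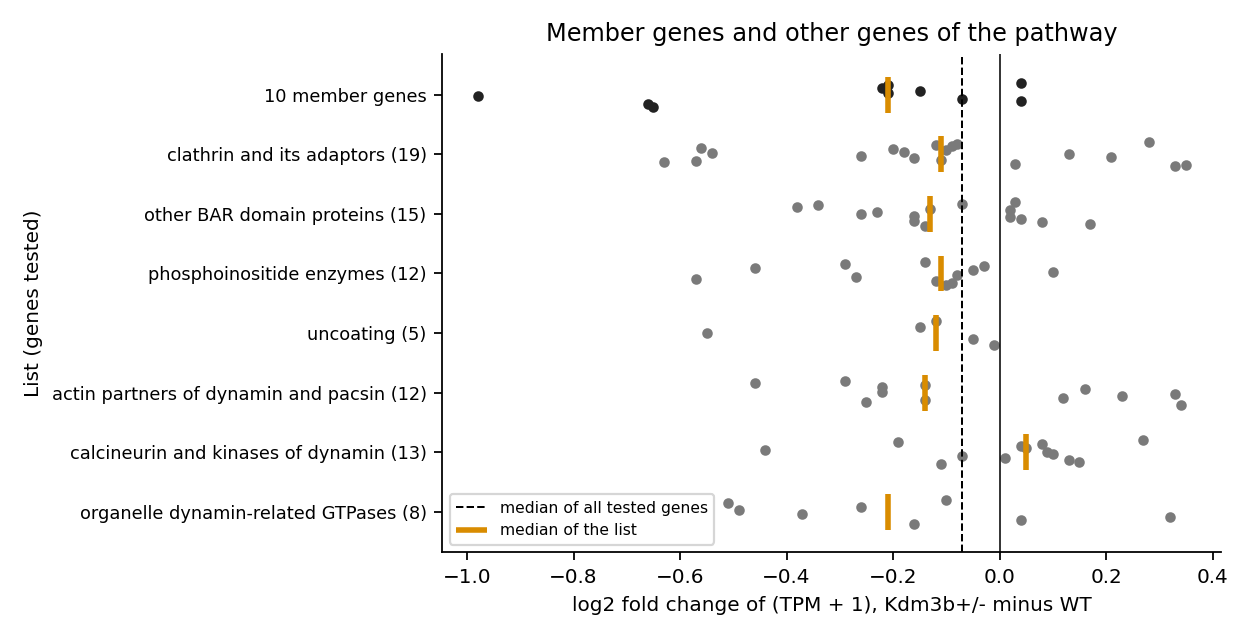
Fold change in log2(TPM + 1), Kdm3b+/- minus WT, of the 10 genes in black and of the tested genes of the 7 other lists in gray, with each list's median as an orange bar and the median of all tested genes (-0.07) as a dashed line. Pacsin2, Dnm1 and Dnm2, at -0.98, -0.65 and -0.66, have lower values than any gene of the other lists. The next is Ap2a1, close to Dnm1 at -0.63.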

How the data were processed

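RNA was sequenced from vermal GCE tissue of 2 WT and 2 Kdm3b+/- mice, grouped by the sample labels. The authors trimmed the reads, aligned them with STAR and estimated gene abundance with StringTie, and versions, genome build and strandedness are not given in the sources used here. The deposited coverage is read depth averaged over exons, without normalization. In the deposited FPKM values the authors scaled for transcript length and mapped fragments, and in the deposited TPM values for transcript length and a total of 1000000. Of the gene numbers, 99.5% lay on the chromosome that RefSeq gives for GRCm38. Aligned gigabases were derived from coverage divided by FPKM.

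Entries that share a gene number were summed, and log2(TPM + 1) was tested with limma 3.58.1 (eBayes with trend, statmod 1.5.0 for robust fits) in R 4.3.3 over 13652 genes averaging a TPM of 1 or more, with Benjamini-Hochberg adjustment. Tables and figures were made with Python 3.11.15, NumPy 2.4.6, pandas 2.3.3, SciPy 1.17.1 and Matplotlib 3.10.9. The scripts were tested on simulated data. GENCODE transcripts of GRCm38 gave length and GC content for 94.5% of the tested genes, and the correction was a loess fit in each library. The genes and lists were chosen with earlier results of these data known, and Dnm1 and Dnm2 are on the list of DEX genes that the study drew from these same libraries. Named genes were the 10 genes, Kdm3b, their paralogs in the lists and, in each list, DEX genes, the gene with the highest mean TPM and those with the largest and the smallest fold change. The use of coverage per aligned gigabase was chosen after seeing the data.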

Additional observations from a re-analysis of the deposited data

How the results depend on the processing

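The number of DEX genes over the whole table was 63 and depended on the processing: it was 38 with FPKM, 2 without a filter on low TPM, 37 with eBayes without trend, 33 with a log2 fold change over 1.2, 15 with coverage per aligned gigabase, 7 with the length and GC correction and the replicate block together, and 21 to 221 when each library was left out in turn. The number among the 10 genes was 0 and was 0 to 2 with a library left out (2 without Kdm3b+/- mouse 2, Dnm1 and Pacsin2), and among the other endocytosis genes it was 0 and was 0 to 1 (Ap2a1, without Kdm3b+/- mouse 2). Of 180 fold changes of the 10 genes under alternatives, 169 kept their direction and their side of the threshold. Where only the filter, the variance model or the block was changed, the fold changes are the same by construction. Their direction could not turn in those fits. The sign of Pacsin1 turned with FPKM (0.00), median-ratio scaling (0.01), the length and GC correction without and with the block (0.15 in both) and without Kdm3b+/- mouse 1 (0.01), that of Dnm3 (-0.03) and of Synj1 (-0.02) without WT mouse 1. With libraries left out in turn, Dnm3 ranged from -0.03 to 0.10, Pacsin1 from -0.14 to 0.01 and Synj1 from -0.02 to 0.11. Of 64 ratio differences under alternatives, 62 lay no further from their main value than the pooled SD between mice. This count says little. With 2 mice per genotype, leaving out a mouse cannot move a difference further than that SD. Another pseudocount, FPKM or the highest entry hardly alters a ratio within a library. With the length and GC correction the difference of Pacsin1 to Pacsin3 was 0.29, beside 0.15, and that of Sh3gl2 to Synj1 was -0.31, beside -0.25. The causes were not tested.

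Mice 1 and 2 of a genotype are different animals from those of the other. Nothing in the sources used here says whether same-numbered mice were processed together. The correlation of the deviations of same-numbered mice was 0.121, and 0.038 after the length and GC correction. With the replicate number as a block, 600 genes were DEX genes (4.39%), 2 of the 10 genes (Dnm1, limma adjusted p = 0.0152, and Dnm2, limma adjusted p = 0.0235) and 4 of the other endocytosis genes (Ap2a1, Ap2a2, Fcho1 and Pip5k1c), and with the correction and the block none of the 10 was. No read counts per gene were at hand, so counting error could not be given, and 2 mice per genotype limit every comparison.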

Other observations

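Other cell types were followed with the same fit, in lists of marker genes. Of 13 tested Purkinje cell markers, 6 had an unadjusted limma p under 0.05, each of them lower in Kdm3b+/- mice, where 11.5% of all tested genes had one with a lower value, and the median fold change of the list was -0.50. The summed TPM of the list was 1482 and 732 in WT mice and 803 and 676 in Kdm3b+/- mice. By this sum only WT mouse 1 stood apart, and WT mouse 2 lay between the Kdm3b+/- mice. Homer3, a postsynaptic scaffold protein, had the most negative value (TPM 35.1 and 19.1 in WT mice, 12.8 and 10.8 in Kdm3b+/- mice, fold change -1.08, limma adjusted p = 0.125), and Pcp2 the most positive (-0.06). Calb1, the calcium buffer calbindin, was the highest of the list, at 422 and 160.1 in WT mice and 191 and 136 in Kdm3b+/- mice, which overlap. Interneuron markers had a median of -0.26, from -0.58 for Gad1, the highest of the list, to -0.02 for Slc32a1. Granule cell markers had a median of -0.05, from -0.46 for Slc17a7, the vesicular glutamate transporter, to 0.58 for Zic1 (limma adjusted p = 0.168), and Gabra6, the highest, was at 0.10.

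Among markers of astrocytes and Bergmann glia (median -0.11), the water channel Aqp4 rose, from 59.2 and 82.3 in WT mice to 150.0 and 152 in Kdm3b+/- mice (fold change 1.10, limma adjusted p = 0.0329), Gja1, the highest, was at -0.14 and Gdf10, a marker of Bergmann glia, had the most negative value (-1.03, limma adjusted p = 0.157). Among oligodendrocyte markers Mobp, a myelin protein, fell, from 925 and 893 to 471 and 482 (fold change -0.93, limma adjusted p = 0.0133). Other markers of that list were higher in both Kdm3b+/- mice, Ugt8a at 0.72 (limma adjusted p = 0.147) and Opalin, named after its values were seen, at 0.69 (limma adjusted p = 0.128), while Mbp, the highest, was at -0.05 and the median was 0.06. Under alternatives the limma adjusted p ranged from 0.0024 to 0.481 for Aqp4 and from 0.000363 to 0.255 for Mobp. Both calls were lost with eBayes without trend (0.0802 and 0.06), coverage per aligned gigabase (0.0686 and 0.0631) and no filter on low TPM (0.481 and 0.255). Both were also lost with the length and GC correction with the replicate block (0.0905 and 0.105) and without WT mouse 1. The call of Mobp was lost without WT mouse 2 as well. Neither gene reached a log2 fold change over 1.2, the stricter limit.

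In the remaining lists no marker was a DEX gene under limma. An unadjusted limma p under 0.05 was found for 1 of 8 tested microglia markers (higher) and 2 of 9 endothelial or mural markers (1 higher and 1 lower). Of 4 tested meningeal markers 3 had one (all lower), and of 4 oligodendrocyte precursor markers 0 had one. Such a p was found for 17.0% of all tested genes, 11.5% with a lower value. Oligodendrocyte precursor markers ran from -0.11 for Cspg4 to 0.32 for Gpr17, with C1ql1, the highest, at 0.27. Microglia markers ran from -0.40 for Csf1r to 0.57 for Aif1, with C1qb, the highest, at 0.12. Endothelial and mural markers ran from -0.68 for Slco1a4 to 0.41 for Rgs5, with Ly6c1, the highest, at 0.03, and meningeal markers from -0.76 for Slc6a13 to 0.21 for Igf2, with Dcn, the highest, at -0.48.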
